A study of Homo sapiens with 6 samples.

Results

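The regulators of the enteroendocrine cell and a chaperone of its prohormone convertases were followed in HT-29 cells, an established human colon adenocarcinoma line, after treatment with 5-aza-2′-deoxycytidine (5-Aza). This cytidine analog is built into replicating DNA and traps the DNA methyltransferases, so that methylation is lost as cells divide. The 9 genes considered were INSM1, NEUROD1, NEUROG3, PAX4, PAX6, ISL1, NKX2-2, PCSK1 and SCG5, taken as every probe set annotated to one of these symbols. The annotation carried 10 such probe sets for 7 of the genes, out of 54675 probe sets on the array and 19775 genes with a symbol of their own. NEUROD1 and PCSK1 were not analysed here. Treated cells (3 arrays) received 10 µM 5-Aza in medium without serum, and their RNA was taken after 72 hours. Control cells (3 arrays) received the solvent, water and acetate, alone. Whether the 3 arrays of a group stem from separate cultures is not stated, so p-values reflect the spread between these arrays, which may be technical. All arrays are of a single cell line without genetic alteration by the study, and no array of normal colon was among them.

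Enteroendocrine cells are the scattered hormone-secreting cells of the gut epithelium. Progenitors that escape Notch signaling express the basic helix-loop-helix factor NEUROG3, which starts the endocrine program and turns on NEUROD1, INSM1 and a set of homeodomain factors that settle which hormone a cell makes. The hormones are made as long precursors and are cut in the secretory granule at pairs of basic residues by the convertases PCSK1 and PCSK2, of which the latter needs the small granule protein SCG5 (7B2) to mature.

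Since 5-Aza acts on methylated CG dinucleotides, the 250 bases upstream of the outermost RefSeq start of each gene were read from the RefSeq promoter table (GRCh38.p14), which matched 6 of the 7 measured genes. INSM1 is named only. The genes shown are ISL1 and SCG5, whose signals stood above background on every array, NKX2-2, and PAX4 as the member with the fewest CG dinucleotides. Sequences run 5′ to 3′ on the strand of the gene, and capitals mark each CG.
ISL1 (chr5:51383198-51383447, plus strand): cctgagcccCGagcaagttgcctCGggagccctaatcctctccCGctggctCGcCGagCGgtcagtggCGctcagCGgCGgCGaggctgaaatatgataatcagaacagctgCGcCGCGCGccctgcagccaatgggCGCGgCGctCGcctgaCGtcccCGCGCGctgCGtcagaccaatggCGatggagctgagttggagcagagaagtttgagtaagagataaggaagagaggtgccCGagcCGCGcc
NKX2-2 (chr20:21522690-21522939, minus strand): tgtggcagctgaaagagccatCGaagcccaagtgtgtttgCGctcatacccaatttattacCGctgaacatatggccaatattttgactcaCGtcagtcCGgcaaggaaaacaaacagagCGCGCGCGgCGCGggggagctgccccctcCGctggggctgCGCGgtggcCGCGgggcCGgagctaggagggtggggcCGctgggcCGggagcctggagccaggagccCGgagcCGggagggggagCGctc
SCG5 (chr15:32641460-32641709, plus strand): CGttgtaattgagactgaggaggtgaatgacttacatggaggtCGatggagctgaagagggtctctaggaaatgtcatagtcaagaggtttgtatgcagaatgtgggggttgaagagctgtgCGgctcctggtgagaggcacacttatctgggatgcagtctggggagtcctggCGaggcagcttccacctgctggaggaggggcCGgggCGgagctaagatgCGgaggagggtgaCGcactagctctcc
PAX4 (chr7:127618143-127618392, minus strand): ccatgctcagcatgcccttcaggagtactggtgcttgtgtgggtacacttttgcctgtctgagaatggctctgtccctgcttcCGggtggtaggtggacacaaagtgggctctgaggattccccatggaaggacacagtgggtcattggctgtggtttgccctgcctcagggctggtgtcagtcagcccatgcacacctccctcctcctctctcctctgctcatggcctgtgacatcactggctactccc

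The upstream region of ISL1 held 27 CG dinucleotides, and 17.1% of 27303 upstream regions of the same length held at least as many. NEUROG3 had 25, NKX2-2 and PAX6 had 22 each, SCG5 had 8 and PAX4 had 1, where the median of all regions was 10 (quartiles 3 and 23). At least 1 CG was thus present upstream of each of the 6 genes, but PAX4 lay at the poor end, as 93.6% of all regions held as many or more. The E-box CANNTG, the motif of helix-loop-helix factors such as NEUROG3, reads the same on both strands and can overlap a CG. It occurred 3 times upstream of NKX2-2 (10.6% of all regions hold 3 or more), 1 time upstream of NEUROG3, ISL1 and SCG5, and not in the windows of PAX4 and PAX6, while 62.2% of all regions held at least 1. These matches are descriptions of the letters, and no methylation was measured in these files.

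Each probe set has 1 linear signal per array in the deposited data, scaled to a common trimmed mean of 500 on every array. The highest signal of the bacterial TrpnX control probe sets served as the background level of an array and lay between 22.6 and 31.8 on the treated arrays and between 23.8 and 42 on the control arrays. Of 16 markers of colon epithelium, 13 were above background on all 6 arrays. CDX2 and GPA33 passed on some arrays only, and CDX1 passed on none. At an unadjusted p under 0.025 limma called 1 of the 16 higher and 0 lower, against 2.97% and 1.05% of all probe sets. It was CEACAM5 (mean signal 836 in treated and 427 in control cells, adjusted p = 0.319, limma). Control replicate 2 gave the lowest signal of the 6 arrays for 23.4% of all probe sets, the highest such share. The hybridization controls were weaker on control replicate 3 (mean signal 5826) than on the other arrays (9872 to 12355).

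Among the 10 probe sets, those of ISL1 and SCG5 gave a signal above background on all 3 control arrays. On all 3 treated arrays 6 probe sets did, namely these and the ones of INSM1 (206502_s_at), NEUROG3, PAX4 (207867_at) and NKX2-2. Over all probe sets the shares were 54.5% for the control and 59.8% for the treated arrays. When the highest level of any array, 42, was used throughout, 2 of the 10 passed on every control array and 5 on every treated array, since PAX4 (207867_at) then fell short. Neither probe set of PAX6 passed on any treated array.

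No member passed the test with limma. With limma and an unadjusted p under 0.025, 0 of the 10 probe sets were called higher and 0 were called lower. The study used the same p threshold for this comparison, but not limma. Its methods name SAM (Significance Analysis of Microarrays), and only the probe sets ranked highest by log2 fold change were taken. At this p, limma called 2.97% of all probe sets higher and 1.05% lower. After adjustment, 0 of the 10 and 0% of all probe sets had a p under 0.05 (smallest adjusted p among the members 0.653). At an unadjusted p under 0.05, 1 was higher (INSM1, 206502_s_at) and 0 lower, against 5.26% and 1.97% of all probe sets. A SAM-type statistic, which divides the difference by its error plus a constant, and limma with trend and robust variance each called this 1 probe set higher at an unadjusted p under 0.025 and none of the 10 at an adjusted p under 0.05. The former called 2.35% of all probe sets higher and the latter 3.37%. In 2 of the 10 probe sets (20%), those of INSM1 (206502_s_at) and ISL1, all treated signals exceeded all control signals, as in 9.29% of all probe sets, and in 0 every treated array lay below, as in 5.22% of all. The median log2 fold change of the 10 was 0.16, against 0.06 over all probe sets.

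**Figure D1:**
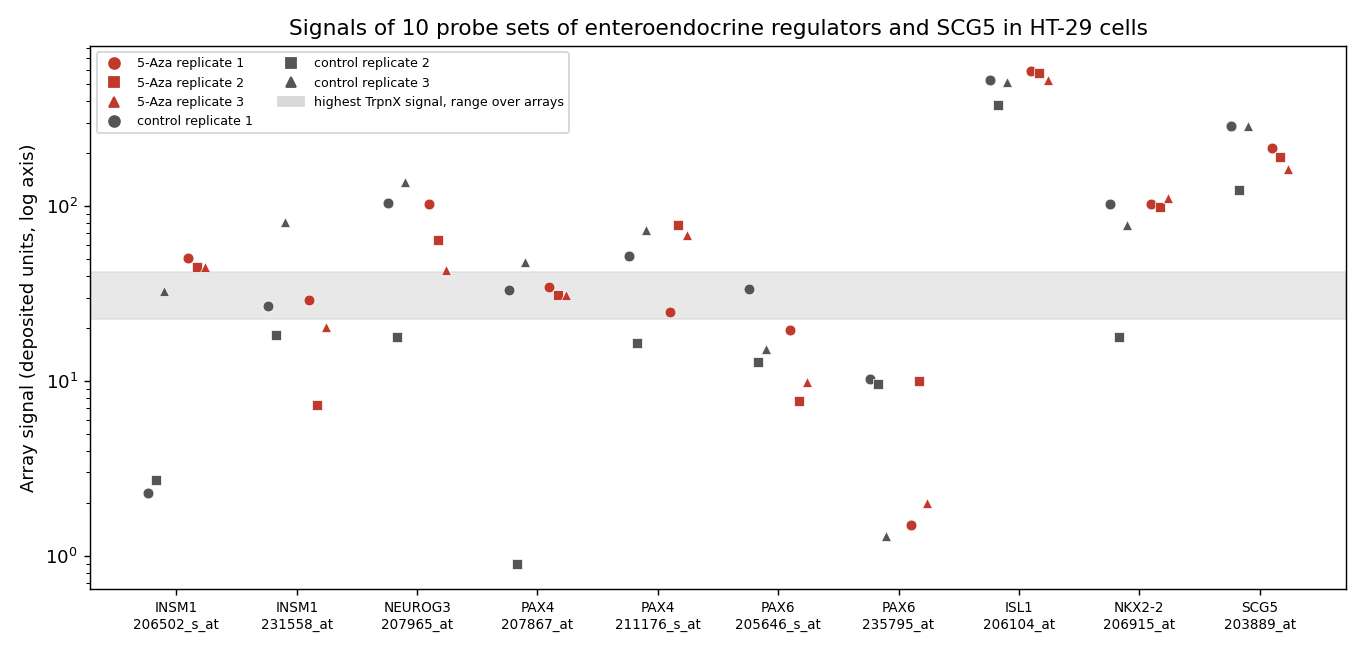
Array signals on a log axis of the 10 probe sets in the control group (grey) and the 5-Aza group (red), 1 point per array (n = 3 per group), with marker shapes for the replicate number and a grey band for the highest TrpnX signals (22.6 to 42). ISL1 and SCG5 lie above the band on all 6 arrays, and control replicate 2 (grey squares) is the lowest array for 6 of the 10 probe sets.

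NEUROG3, which commits progenitors to the endocrine lineage, did not separate the groups. Its signals were 103.2, 64.4 and 43.0 on 5-Aza replicates 1, 2 and 3 and 103.6, 17.9 and 137.2 on control replicates 1, 2 and 3. The control arrays thus enclosed the treated ones, with control replicate 2 alone under its background level. The log2 fold change was 0.04 (SE 0.84, 95% interval -2.08 to 2.17, adjusted p = 0.994, limma), an interval wide enough to hold a large change in either direction. The sign of this value turned under quantile normalization (-0.13), median centring (-0.14) and 16 added to the signals in place of 1 (-0.05), as the ratio of the mean signals (-0.30), and also without control replicate 2 (-0.85) or without 5-Aza replicate 1 (-0.27).

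INSM1, a zinc finger repressor that acts downstream of NEUROG3 and keeps cells on the endocrine path, gave opposite values with its 2 probe sets. With 206502_s_at the signals were 50.2, 44.6 and 44.7 on 5-Aza replicates 1, 2 and 3, and 2.3, 2.7 and 32.8 on control replicates 1, 2 and 3. Every treated array stood above its background level and no control array did, and the treated values lay close to each other. The log2 fold change was 2.67 (SE 0.95, 95% interval 0.27 to 5.07, unadjusted p = 0.0349, adjusted p = 0.653, limma), and an exact permutation test (two-sided) gave p = 0.1, the smallest that 3 arrays against 3 allow. With 16 added to the signals it was 1.29 (unadjusted p = 0.0170, limma, a setting that called 3.31% of all probe sets higher at an unadjusted p under 0.025), and the ratio of the mean signals was 1.88 on the log2 scale. The size thus depended on how signals under background were treated. Without control replicate 3 it was 3.76 (unadjusted p = 1.24e-05, limma, with 3.43% of all probe sets called higher). That array had the weak hybridization controls and the highest control signal of this probe set. At an adjusted p under 0.05, 0 member probe sets were called without it. Without control replicate 1 the value was 2.08 (unadjusted p = 0.0998, limma). With any array other than control replicate 3 left out, the unadjusted p lay between 0.0771 and 0.106 (limma).

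The other probe set of INSM1, 231558_at, had signals of 29.2, 7.3 and 20.3 on 5-Aza replicates 1, 2 and 3 and of 26.9, 18.4 and 81.2 on control replicates 1, 2 and 3. The groups overlapped, no treated array was above its background level, and 2 control arrays were. Its log2 fold change was -1.02 (SE 0.73, adjusted p = 0.818, limma) and -0.41 without control replicate 3. The mean of both probe sets, computed after these values were seen, gave 0.83 (SE 0.78, unadjusted p = 0.334, limma). Control replicate 3 was the highest control array with both probe sets. The direction for INSM1 therefore rested on the choice of probe set.

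The homeodomain factors come next in the lineage. ISL1, a LIM homeodomain factor of hormone-producing gut cells and of islets, was the member with the least spread between control arrays. Its signals were 595.7, 578.1 and 527.9 on 5-Aza replicates 1, 2 and 3 and 526.4, 379.9 and 509.6 on control replicates 1, 2 and 3. The lowest treated signal exceeded the highest control signal, although 5-Aza replicate 3 and control replicate 1 differed by little. Treated cells had a mean signal of 567 ± 35.2 (SD, n = 3) and control cells one of 472 ± 80.2 (SD, n = 3), a 1.21-fold difference of the geometric means (log2 0.28, SE 0.19, 95% interval -0.19 to 0.75, adjusted p = 0.807, limma). Without control replicate 2 the value was 0.13. ISL1 was thus expressed without 5-Aza, and the upper end of the interval lies below a doubling of the signal.

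NKX2-2, a homeodomain factor needed for several hormone-producing cell types, had signals of 102.9, 98.8 and 110.7 on 5-Aza replicates 1, 2 and 3 and of 102.2, 17.8 and 78.5 on control replicates 1, 2 and 3. The treated arrays were close together, control replicate 1 lay among them, and control replicate 2 was far below. The log2 fold change of 0.97 (SE 0.67, 95% interval -0.72 to 2.66, adjusted p = 0.811, limma) was 0.21 without control replicate 2, so this array decided most of its size. Of the members with at least 22 CG dinucleotides upstream, ISL1 was above background on 3 of the 3 control arrays, and NKX2-2 and NEUROG3 on 2. PAX6, with 22 as well, was above it on 1 control array (205646_s_at) or 0 (235795_at). The part of methylation in these levels was not tested.

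PAX4, a paired-homeodomain repressor of endocrine precursors, was measured with 2 probe sets. With 207867_at the signals were 34.6, 31.1 and 31.0 on 5-Aza replicates 1, 2 and 3 and 33.3, 0.9 and 48.1 on control replicates 1, 2 and 3. With 211176_s_at they were 24.8, 78.5 and 68.7 on the treated and 52.2, 16.6 and 73.3 on the control arrays, in the same order. The groups overlapped with both probe sets, and control replicate 2 was lowest with both. The log2 fold changes were 1.17 (SE 1.29, adjusted p = 0.874, limma) and 0.35 (SE 0.71, adjusted p = 0.936, limma). Without control replicate 2 both turned negative, to -0.31 and -0.27, so the positive sign came from that array.

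PAX6, another paired-homeodomain factor and an activator of hormone genes such as GCG, was near or under background throughout. Its probe set 205646_s_at had signals of 19.5, 7.7 and 9.9 on 5-Aza replicates 1, 2 and 3 and of 33.8, 12.9 and 15.3 on control replicates 1, 2 and 3, of which control replicate 1 alone was above its background level. The probe set 235795_at lay between 1.3 and 10.3 on the 6 arrays and passed on none. The log2 fold changes were -0.67 (SE 0.49, adjusted p = 0.822, limma) and -0.58 (SE 0.88, adjusted p = 0.910, limma), with overlapping groups in both. For each replicate number the treated signal of 205646_s_at was below the control signal, but the labels do not say that same-numbered arrays belong together. With the number as a block the unadjusted p was 0.0232 (limma), against 0.226 without it. With this block 508 of 54614 probe sets were called lower at an unadjusted p under 0.025. With signals at background, no level of PAX6 can be given.

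SCG5, the chaperone of prohormone convertase PCSK2, was above background on every array. Its signals were 215.0, 191.2 and 163.5 on 5-Aza replicates 1, 2 and 3 and 287.0, 123.9 and 285.7 on control replicates 1, 2 and 3. The treated arrays lay between control replicate 2 and the other two control arrays, so the groups overlapped. Treated cells had a mean signal of 190 ± 25.8 (SD, n = 3) and control cells one of 232 ± 93.8 (SD, n = 3) (log2 fold change -0.20, SE 0.38, 95% interval -1.16 to 0.76, adjusted p = 0.931, limma). The value was -0.60 without control replicate 2 and 0.00 without control replicate 1 or without control replicate 3. No direction can be given for SCG5 from these arrays.

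**Figure D2:**
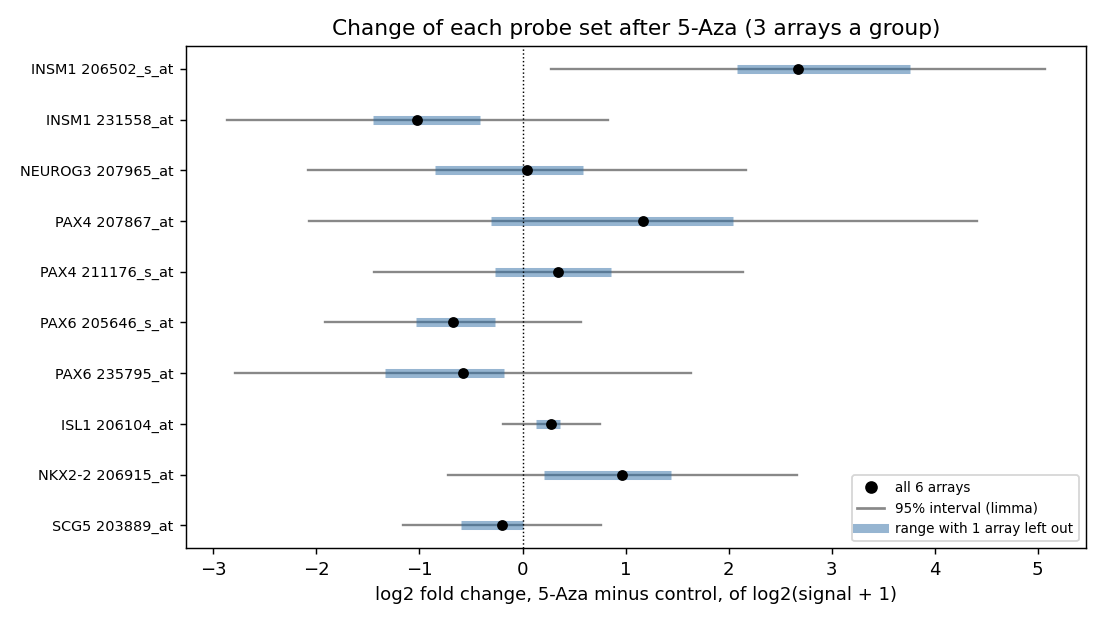
Log2 fold change of each probe set (5-Aza minus control, n = 3 arrays per group) with its 95% interval from limma (thin grey line) and the range of values when 1 array is left out (thick blue line). The interval of INSM1 206502_s_at alone lies to the right of 0 (0.27 to 5.07), and the blue range crosses 0 for NEUROG3, for both probe sets of PAX4 and, by less than 0.01, for SCG5.

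The members also differed between the groups in the spread of their replicate arrays. In all 10 probe sets the SD between replicate arrays, on the log2 scale, was smaller in treated than in control cells, as it was in 58.5% of all probe sets. Its median over the 10 was 0.41 in treated and 1.19 in control cells, against 0.33 and 0.39 over all probe sets. This comparison was not matched for signal. Of the 10, 5 had a mean over the 6 arrays above 42, the highest background level. Over all probe sets the median SD within groups was 1.06 with a mean at or under 42 and 0.238 above it. The part of signal strength in the spread of the members was not tested. The difference was widest for PAX4 with 207867_at (0.09 and 2.57), INSM1 with 206502_s_at (0.10 and 1.89) and NKX2-2 (0.08 and 1.32). Control replicate 2 gave the lowest of the 6 signals in 6 of the 10 probe sets, those of NEUROG3, PAX4 (both), ISL1, NKX2-2 and SCG5. It did so in 23.4% of all probe sets. The 10 probe sets were read on the same arrays and are not separate observations. For the probe sets of INSM1 control replicate 2 was not the lowest array. The part of this array in the spread of the members was not tested.

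**Figure D3:**
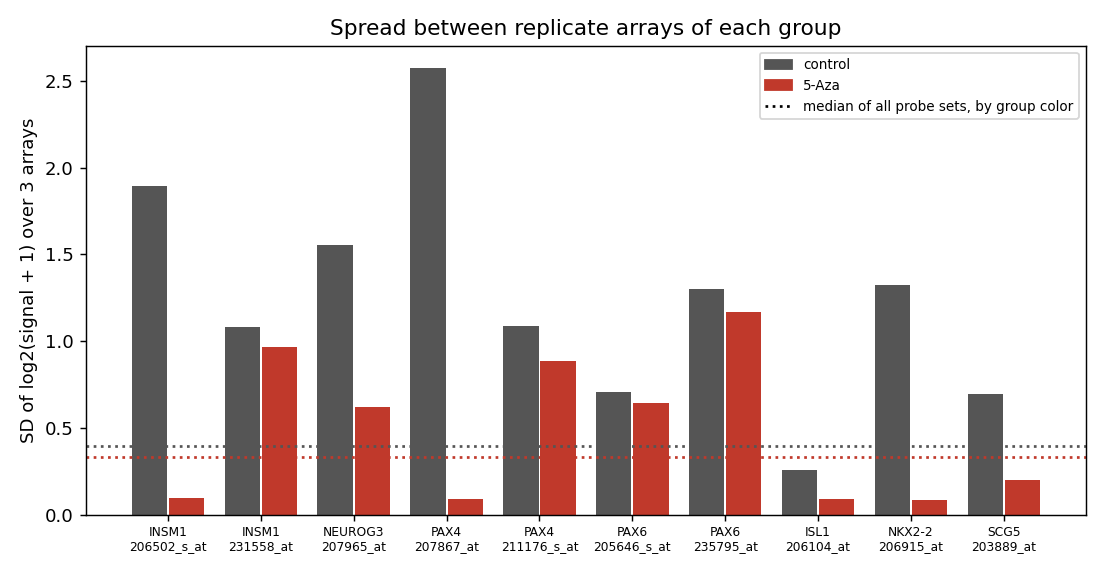
SD between the 3 replicate arrays of log2(signal + 1) for each probe set in control (grey) and 5-Aza-treated cells (red), with dotted lines at the median SD of all probe sets (0.39 and 0.33). The grey bar is the taller one in all 10 probe sets, and the treated SD was the smaller one in 58.5% of all probe sets.

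Other genes of the endocrine program were read from lists, with 1 probe set per gene. Of 27 measured endocrine factors other than the members, limma called 1 higher and 0 lower with an unadjusted p under 0.025, against 2.97% and 1.05% of all probe sets, and their median log2 fold change was 0.07. The 1 was ST18, a zinc finger factor of endocrine and neural cells, with signals of 16.4, 21.2 and 39.4 on the treated and 1.4, 5.4 and 9.1 on the control arrays. These groups did not overlap (log2 fold change 2.22, SE 0.63, adjusted p = 0.576, limma), yet ST18 was above background on 1 treated array only. When 5-Aza replicate 2 or 3 or control replicate 2 was left out, or all probe sets of each gene were averaged, this count was 0. Without control replicate 2 the count of lower factors was 3, while 714 of all 54614 probe sets were lower. In 2 of the 27 all treated signals exceeded all control signals and in 1 they all lay under them, where the shares over all probe sets were 9.29% and 5.22%.

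Of 18 measured processing enzymes and granins other than SCG5, limma called 0 higher and 0 lower with an unadjusted p under 0.025. The shares over all probe sets were 2.97% and 1.05%. With an unadjusted p under 0.05, 1 (SCG2) was called higher and 1 lower, against 5.26% and 1.97% of all probe sets. Their median log2 fold change was 0.15. The largest absolute values were those of SCG2, a granin stored with hormones, and of PCSK4, a convertase of germ cells (0.66, adjusted p = 0.746, limma). SCG2 had signals of 34.6, 56.1 and 44.4 on the treated and 3.0, 30.3 and 9.6 on the control arrays (log2 fold change 2.04, SE 0.77, adjusted p = 0.672, limma), so that every treated array, and no control array, was above its background level. The one past an unadjusted p of 0.05 in the other direction was PCSK7, a convertase found in most cells, named after its values were seen (log2 fold change -0.49, adjusted p = 0.669, limma). The count of 0 higher was 3 without control replicate 2, and 1 without control replicate 3 or with 16 added. Of all 54614 probe sets, 1723, 1871 and 1807 were higher in these settings, in this order. The count of 0 lower was 1 without control replicate 1 and 2 after median centring, where 665 and 1451 of all probe sets were lower.

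The Notch pathway holds back the endocrine fate. Of its 22 measured genes, limma called 0 higher and 1 lower with an unadjusted p under 0.025, against 2.97% and 1.05% of all probe sets. The latter was MFNG, a glycosyltransferase that modifies Notch receptors, with signals of 138.3, 156.5 and 152.2 on the treated and 209.6, 198.4 and 245.2 on the control arrays (log2 fold change -0.54, SE 0.16, adjusted p = 0.585, limma). Leaving out 5-Aza replicate 1 or 3 or control replicate 1 or 3, or averaging each gene's probe sets, made this count 0. Median centring made it 2, while the count of lower ones among all probe sets moved from 575 to 1451. Without control replicate 3 the count of higher genes was 1, while 1871 of all 54614 probe sets were higher. The median log2 fold change of the pathway was 0.05, close to that of all probe sets.

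The hormone genes lie downstream of these factors. Of 14 measured, limma called 2 (GCG and SST) higher with an unadjusted p under 0.025 and 0 lower, against 2.97% and 1.05% of all probe sets. None was past an adjusted p of 0.05, and the median log2 fold change was 0.48. In 2 of the 14 all treated signals exceeded all control signals and in 0 they all lay under them, against 9.29% and 5.22% of all probe sets. The signals of SST were 77.3, 141.8 and 125.4 on the treated and 5.5, 7.9 and 4.6 on the control arrays (log2 fold change 4.03, adjusted p = 0.0933, limma), and those of GCG 199.0, 306.8 and 178.2 against 43.6, 16.4 and 43.1 (2.78, adjusted p = 0.307, limma). On the same arrays the member probe sets had values from -1.02 to 2.67, both of these being from INSM1. The difference between hormone genes and factors was not tested.

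**Figure D4:**
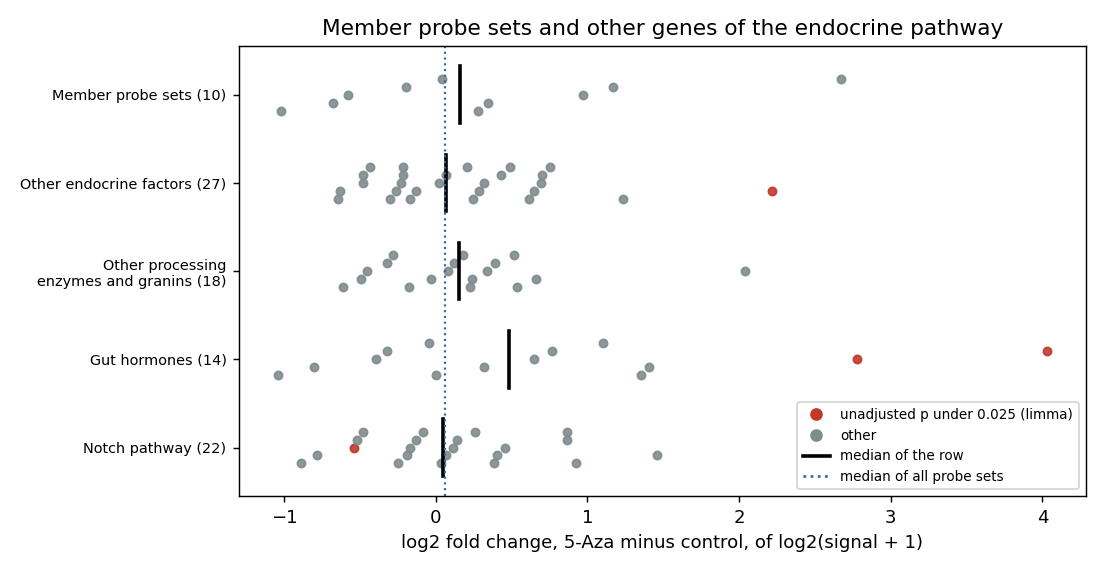
Log2 fold change (5-Aza minus control, n = 3 arrays per group) of the member probe sets and of the measured genes of 4 lists, 1 point per probe set or gene, with black bars for medians, a dotted blue line for the median of all probe sets (0.06) and red for an unadjusted p under 0.025 in limma. None of the 10 member probe sets is red, and the red points are ST18, SST, GCG and, to the left of 0, MFNG.

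Several of these factors also serve neurons and pancreatic islets, so markers of other cell types were read on the same arrays. Of 14 neuron markers 3 were above background on all 6 arrays, and limma called 0 with an unadjusted p under 0.025. Over all probe sets 2.97% were called higher and 1.05% lower. In 2 of the 14 (TUBB3 and SNAP25) all treated signals exceeded all control signals, as in 9.29% of all probe sets. In 0 they all lay under them, as in 5.22%. TUBB3 had a mean signal of 9254 in treated and 6141 in control cells (unadjusted p = 0.0373, adjusted p = 0.663, limma). The summed signal of the neuron markers without TUBB3, which made up most of the sum, was 565.2 to 716.2 on the treated and 436.8 to 507.0 on the control arrays. Of 8 measured islet markers 2 were above background on all 6 arrays and 0 were called. Their summed signals were 1544 to 1719 on the treated and 1133 to 2027 on the control arrays. Most of these sums came from TTR, with signals of 1170 to 1458 on the treated and 638.3 to 1624 on the control arrays. For 10 fibroblast markers the sums were 963.5 to 1125 on the treated and 765.8 to 841.1 on the control arrays, and for 8 leukocyte markers 513.7 to 772.4 and 315.4 to 537.3, with 0 called in either list. The part of these levels in the values of INSM1 or the other members was not tested. In bulk RNA, more cells that express a gene and more RNA per cell cannot be told apart.

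The genes whose pattern over the 6 arrays was most like that of INSM1 (206502_s_at), the member with the largest absolute change, were VCPIP1, TAF5L and MFAP3L, with Pearson correlations of 0.997, 0.997 and 0.994 among 14332 genes compared. MFAP3L had signals of 42.5, 46.5 and 41.1 on the treated and 8.8, 11.4 and 33.6 on the control arrays, again with control replicate 3 the highest of the controls. The same order of the control arrays came with a smaller difference in VCPIP1 (signals 262.4 to 281.7 on the treated and 169.4 to 258.7 on the control arrays, log2 fold change 0.48). With 6 arrays and so many genes such correlations are a description, and all points share the scaling of the same arrays.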

How the data were processed

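Expression was measured on 6 HGU133 Plus2.0 arrays of HT-29 cells, grouped by treatment as the sample labels give it (3 of 5-Aza, 3 of control). The values deposited by the authors are linear intensity values, 1 signal per probe set and array, made with the affy package according to the submitters' notes (version not given), while background correction and summary method are not given in the sources used here. The mean without the lowest and highest 2% was 500 on each array, and no further normalization was applied. After removal of 61 control probe sets, log2(signal + 1) of 54614 probe sets was compared with limma 3.58.1 in R 4.3.3, with the group as the only term and Benjamini-Hochberg adjustment over all of them. Single values were also compared by an exact permutation test (two-sided), whose smallest p is 0.1. The script was tested on simulated data.

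Of 54675 probe sets 41097 have 1 symbol in the platform annotation, 1801 several and 11777 none, and only those with 1 symbol were named. For the lists, a gene was represented by its probe set with the highest mean signal, and suffix _x_at was avoided where possible. All member probe sets were described. From a list, genes at an unadjusted p under 0.025 without overlap were named, otherwise the 2 with the largest absolute change, and the 3 genes most alike to the leading member. PCSK7 was named after its values were seen. Members and lists were chosen with earlier results of these data known. Alternatives were a SAM-type statistic, trend and robust variance, quantile normalization, median centring, 16 in place of 1, only probe sets above the median signal, no _x_at probe sets, the ratio of mean signals, a replicate block and leaving out each array. The number of arrays limits the precision.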

Additional observations from a re-analysis of the deposited data

How the results depend on the processing

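Of 140 values of the member probe sets under alternatives with a test, 125 kept their direction and their side of an unadjusted p of 0.025, 10 turned direction and 5 passed the threshold newly. Of the 10 ratios of mean signals, which have no test, 1 turned direction (NEUROG3, -0.297). NEUROG3 turned to -0.129 under quantile normalization, -0.142 after median centring and -0.0452 with 16 added, and without 1 array it ranged from -0.845 to 0.590. Without 1 array PAX4 ranged from -0.306 to 2.04 (207867_at) and from -0.266 to 0.856 (211176_s_at), and SCG5 from -0.599 to 0.00375. The mean of both probe sets of INSM1, added after the data were seen, was 0.826. It averages 206502_s_at (2.67) and 231558_at (-1.02), so its sign differs from that of 231558_at alone and is counted among the 10 turned. The cause of the other turns was not tested. The count of member probe sets called higher, 0, was 1 with trend and robust variance, with the SAM-type statistic and with 16 added, and 0 to 1 without 1 array (1 without control replicate 3), each time INSM1 206502_s_at. The count called lower, 0, was 1 with the replicate block (PAX6 205646_s_at), where 508 of all 54614 probe sets were lower. The labels do not pair the arrays by number. Deviations of same-numbered arrays were correlated between -0.0117 and 0.00965, and those of other pairs between -0.0163 and 0.0139. With many weak probe sets, such values cannot tell whether same-numbered cultures were handled together. The block changed no other member's side of the threshold. Over all probe sets, 1621 were higher and 575 lower. The lower ones were 909 with trend and robust variance, 911 after quantile normalization and 1451 after median centring, where the higher ones were 926 and the median log2 fold change moved from 0.0618 to -0.125. At an adjusted p under 0.05, 0 became 23 with trend and robust variance and 10 when probe sets with a mean under the median were left out, a filter that left fewer to test and kept 4 of the 10 member probe sets. Weak signals limit these results. The median SD was 1.06 on the log2 scale in the 21414 probe sets with a mean at or under 42 and 0.238 in the others.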
